A study of Mus musculus with 9 samples.

Results

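The genes described here encode the secreted Wnt ligands, their Frizzled (Fzd) receptors, and the secreted antagonists of the Sfrp and Dkk families. They were taken as every row of the deposited gene table whose symbol is Wnt, Fzd, Sfrp or Dkk followed by a number and optional letters. This gave 37 of 22100 rows, made up of 19 Wnt, 10 Fzd, 4 Sfrp and 4 Dkk genes. Wnt proteins are lipid-modified signals that bind Frizzleds on the cell surface. With the co-receptors Lrp5 and Lrp6 they stabilise beta-catenin, which switches on target genes in the nucleus, and with other co-receptors such as Ror2 they act on cell polarity and calcium without beta-catenin. Sfrp proteins carry a Frizzled-like domain that binds Wnts outside the cell, Dkk proteins occupy Lrp5 and Lrp6, and in the brain astrocytes both release and respond to Wnts.

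The cells were cultured mouse cortical astrocytes, the support cells of the brain, grown in serum-containing medium and passaged before they filled the dish. The 3 libraries called 90 min came from cells harvested after 90 min in 50 µM noradrenaline, a transmitter that acts through adrenoceptors. The 3 libraries called 3 d came from cells given the same exposure, moved to medium free of noradrenaline, and collected 3 days after the application. The 3 control libraries were unstimulated and are titled with the 3 day time, so the 90 min cells had no control of their own time. The sources used here do not give whether the controls also had their medium changed, nor any genotype, strain, sex or age. They also leave out whether each replicate was a culture or an animal of its own, and the p-values then measure only the spread among 3 libraries a group, which may be technical.

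Library totals ran from 15529158 to 18729980 counts, with 14920 to 15397 genes detected. Levels are given as CPM, the counts of a gene relative to the library total after scaling by TMM factors, with the mean ± SD of 3 libraries. A gene at 0 could still hold up to 3 counts, or 0.158 to 0.190 CPM depending on the library. A difference was called at an edgeR quasi-likelihood adjusted p below 0.05, with Benjamini-Hochberg adjustment over the 13090 genes that passed a filter on low counts. Each log2 fold change comes with its standard error (SE). The 9 astrocyte markers examined summed to 591 to 617 CPM in controls, 573 to 599 at 90 min and 574 to 585 at 3 d, with Gfap, the astrocyte filament gene, at only 1.13 ± 0.293 CPM in controls. Within that sum 2 of the 9 rose at 90 min and 4 fell, among them, named after their values were seen, the connexin Gja1 (log2 0.93) and the glial factor Sox9 (log2 −0.82). Fibroblast and meningeal markers summed to 5202 to 5970, 5336 to 6680 and 4602 to 5374 CPM in the same order. Most of that sum came from Fn1 (2895 ± 270.5 CPM in controls), Col1a1 (1419 ± 105) and Col1a2 (877 ± 49.8), while Col3a1 (4.28), Pdgfra (7.08) and Lum (7.96 CPM) were low and Aldh1a2 was at 0 in every library. At 90 min 3 of its 10 tested markers rose and 0 fell. Over all tested genes, 17.5% were called higher and 15.5% lower at 90 min. In bulk RNA, fewer cells of a type and less RNA per cell cannot be told apart.

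Of the 37 genes, 22 passed the filter on low counts and were tested, namely 10 Wnts, 9 Frizzleds, 2 Sfrps and 1 Dkk. At least 1 count was present for 32 genes, and 18 reached 1 CPM in all 3 libraries of at least 1 group. The 5 genes at 0 in all 9 libraries were Wnt7a, Wnt8b, Fzd10, Sfrp2 and Dkk4. The 10 genes counted but not tested were Wnt1, Wnt2, Wnt3, Wnt3a, Wnt7b, Wnt8a, Wnt11, Sfrp5, Dkk1 and Dkk2. Wnt3a, the ligand most used to activate beta-catenin signalling in culture, had 1 count in all, as had the Lrp6 antagonist Dkk1.

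At the end of the exposure 9 of the 22 tested genes were called, 6 higher and 3 lower. That is 40.91% of them, against a background of 33% of all 13090 tested genes, with 17.5% called higher and 15.5% called lower. The median log2 fold change over the 22 was 0.05, and over all tested genes it was 0.00. Among the Wnts, 3 of 10 rose and none was called lower. Among the Frizzleds, 3 of 9 rose and 3 fell, and neither Sfrp nor the 1 tested Dkk was called.

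**Figure D1:**
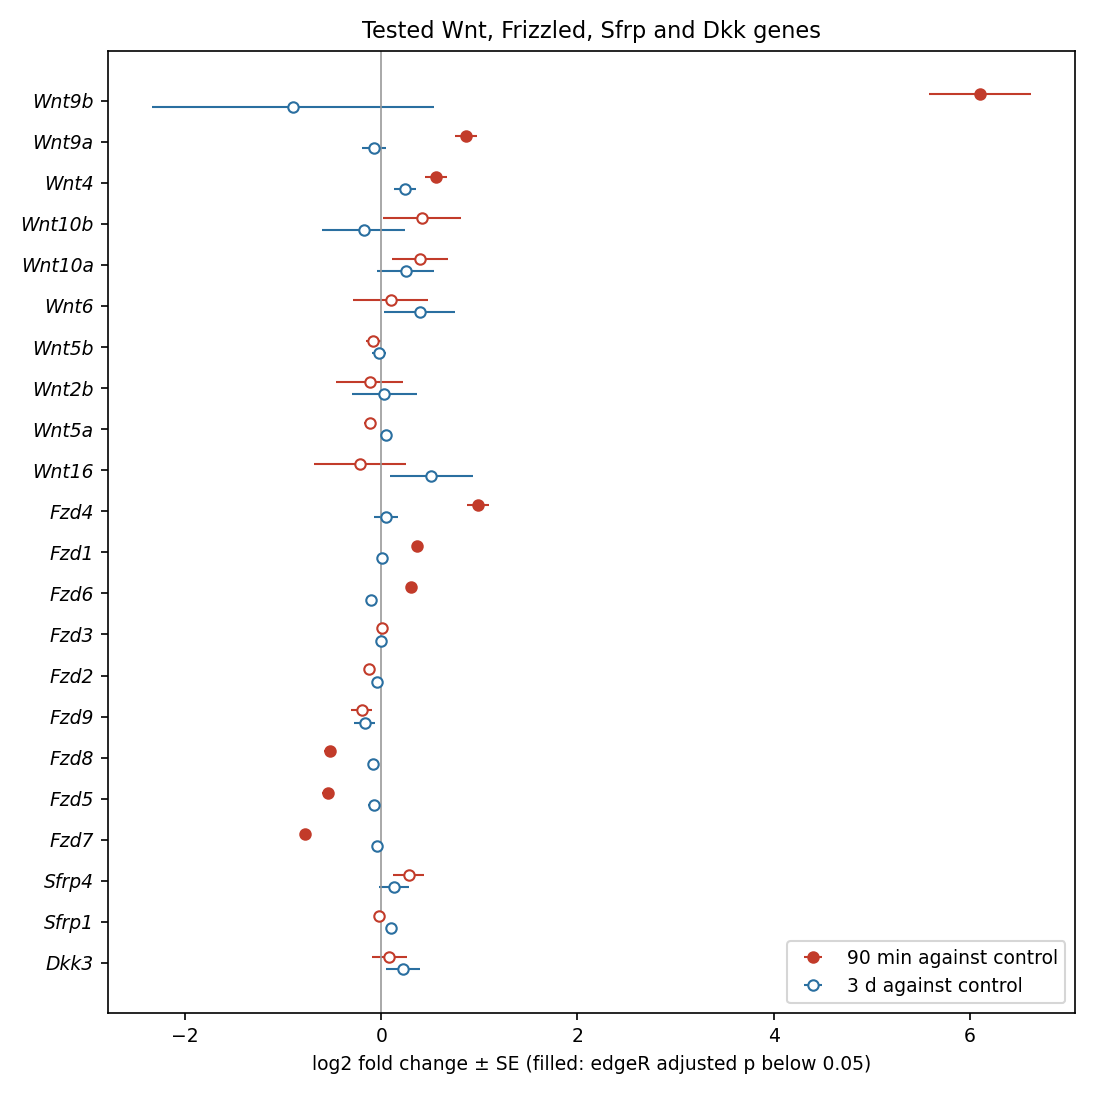
Log2 fold change with its standard error for the 22 tested genes, at 90 min against control and at 3 d against control, with filled points for adjusted p below 0.05. Filled points occur only at 90 min, where Wnt9b stands at 6.10 and the Frizzleds spread from −0.77 for Fzd7 to 0.99 for Fzd4.

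Levels of different genes were compared per kilobase of the longest coding transcript in the GENCODE M21 annotation. On that scale the control cells carried most of Sfrp1, an antagonist, at 161 ± 5.65 CPM per kb, followed by Fzd6 at 78.7 ± 2.22. Fzd1 (30.2 ± 1.06), Wnt5a (29.4 ± 1.16), Fzd8 (25.2 ± 1.51), Wnt5b (23.6 ± 1.57) and Fzd2 (23.6 ± 0.918 CPM per kb) came next, and in this order Fzd1 and Wnt5a, Fzd8 and Wnt5b, and Wnt5b and Fzd2 did not differ beyond the sum of their SDs. Fzd7 followed at 13.7 ± 0.298, and Fzd5, Fzd3, Fzd9, Wnt9a, Wnt4, Fzd4 and Sfrp4 lay between 6.12 and 1.12 CPM per kb. The order depends on the transcript taken as reference: with the shortest coding transcript Wnt5a stood at 56.5 and Fzd5 at 14.6 CPM per kb. The files give a single value per gene, so the transcript used by the cells is not known.

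Wnt9b (Entrez 22412), a ligand known from kidney tubule formation, went from almost no counts to a clear signal at 90 min. The controls held 0, 2 and 0 counts, the 90 min libraries 57, 54 and 57, and the 3 d libraries 1, 0 and 0. All 3 treated libraries at 90 min lay far above the other 6, and the gene passed the filter through those 3 libraries alone. Its level rose from 0.0422 ± 0.0731 to 3.21 ± 0.213 CPM, a counted ratio of 80.8 with an exact 95% interval of 22.0 to 672 from 168 counts against 2. The fitted log2 fold change was 6.10 (SE 0.52, edgeR adjusted p = 3.23e-08), the 10th highest of the 13090 genes tested. Because only its high group brought it through the filter, this p and rank are descriptive and give no separate support. At 0.709 CPM per kb at 90 min it remained below the other called Wnts on the per-length scale.

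The 250 bases before the RefSeq start of Wnt9b, on the minus strand at chr11:103749822-103750071 of GRCm38.p6, and of Wnt9a, on the plus strand at chr11:59306680-59306929, are shown because these 2 ligands had the largest increases among the Wnts called. Capitals mark the CCAAT box, a common promoter element bound by NF-Y, and the core of the cyclic AMP response element (CRE), the element bound by CREB, on either strand.
Wnt9b: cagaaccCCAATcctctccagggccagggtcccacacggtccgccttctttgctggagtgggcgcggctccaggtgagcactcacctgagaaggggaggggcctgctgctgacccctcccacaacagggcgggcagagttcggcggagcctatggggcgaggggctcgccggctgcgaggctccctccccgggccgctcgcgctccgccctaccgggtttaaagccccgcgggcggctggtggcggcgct
Wnt9a: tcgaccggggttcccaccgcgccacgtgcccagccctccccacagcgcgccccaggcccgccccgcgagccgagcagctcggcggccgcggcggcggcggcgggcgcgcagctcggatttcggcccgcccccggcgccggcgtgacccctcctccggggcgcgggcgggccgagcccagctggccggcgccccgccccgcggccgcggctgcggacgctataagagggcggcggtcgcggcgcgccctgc

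The CCAAT box, read as ATTGG from the other strand, was present in the Wnt9b window and absent from that of Wnt9a. The CRE core, TGACG or, from the other strand, CGTCA, was in neither. Over all 32851 windows of the RefSeq promoter table, 33.8% held a CCAAT and 17.8% a CRE core. A promoter entry was available for 25 of the 37 genes. Of those 25, 10 held a CCAAT, 3 held a CRE core (Sfrp5, Wnt10b and Wnt11), and 0 held the full palindrome TGACGTCA, which overlaps the core and occurred in 1.55% of all windows. These matches describe the letters of the windows and no binding was measured.

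The RefSeq span of Wnt9b overlaps the edge of the adjacent Wnt3 (gap −1.1 kb), which had at most 2 counts in any library, and whether counting used strand is not given. The flanking genes Gosr2 and Nsf, named after their values were seen, rose by far less, with log2 fold changes of 0.17 (adjusted p = 0.0171) and 0.21 (adjusted p = 0.00306).

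Wnt9a (Entrez 216795), the relative most like Wnt9b, was present throughout and also rose. Its levels were 7.18, 6.97 and 8.47 CPM in controls, 14.8, 11.9 and 14.6 at 90 min, and 7.15, 7.09 and 7.20 at 3 d. The 90 min libraries did not overlap the other groups, while control and 3 d libraries overlapped. The mean went from 7.54 ± 0.814 to 13.8 ± 1.63 CPM (log2 0.87, SE 0.11, adjusted p = 6.84e-06).

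Wnt4 (Entrez 22417), a ligand known from kidney and gonad development, rose by a smaller step. Its levels were 8.10, 8.04 and 7.91 CPM in controls, 13.0, 11.6 and 10.8 at 90 min, and 10.8, 8.51 and 9.11 at 3 d. Every treated library exceeded every control, and the highest 3 d library equalled the lowest 90 min library to the digits given. The log2 fold change at 90 min was 0.56 (SE 0.11, adjusted p = 6.63e-04). At 3 d it was 0.24 (SE 0.11), which was not called (adjusted p = 0.528).

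Wnt5a, the main ligand of the route through Ror2, supplied most Wnt counts. Its levels were 204, 199 and 215 CPM in controls, 175, 201 and 194 at 90 min, and 221, 215 and 202 at 3 d. The controls overlapped both treated groups, while the 3 d libraries lay just above those at 90 min. The log2 fold change at 90 min was −0.12 (SE 0.05, adjusted p = 0.0892) and was not called, though the adjusted p was 0.0334 without the 90 min library of replicate 2 and 0.0354 with no filter on low counts. Its share of all Wnt counts, a share of counts that takes no account of transcript length, was 72.8 to 73.3% in controls, 64.9 to 71.0% at 90 min and 72.6 to 74.2% at 3 d. Wnt9a supplied 2.67% of Wnt counts in controls and 4.98% at 90 min, and Wnt9b supplied 1.16% at 90 min. The Wnt counts summed to 272 to 296 CPM in controls and 269.9 to 289.7 at 90 min, ranges that overlapped.

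Wnt5b, the close relative of Wnt5a, measured 54.1, 53.7 and 60.3 CPM in controls, 57.2, 56.4 and 45.2 at 90 min, and 56.0, 54.8 and 54.3 at 3 d. Of the 90 min libraries, 2 lay within the control range and 1 below it, and the log2 fold change of −0.08 was not called (adjusted p = 0.447). Wnt2b, Wnt6, Wnt10a, Wnt10b and Wnt16 were at 0.549 to 1.22 CPM in controls, and their log2 fold changes at 90 min lay between −0.22 and 0.42 with none called.

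The ligands below the filter included 2 with more counts at 90 min than in the controls, named after their values were seen. Wnt7b, a ligand that signals to brain vessels, had 0, 0 and 0 counts in controls, 5, 8 and 10 at 90 min, and 0, 1 and 1 at 3 d. All 3 libraries at 90 min lay above the other 6. Set against an assumed 3 counts over the control group, their 23 counts were 7.37-fold higher, with no counting error allowed for the 23. Wnt11, a ligand of the polarity route, had 5, 1 and 1 counts in controls, 20, 15 and 5 at 90 min, and 4, 3 and 7 at 3 d. The lowest 90 min library equalled the highest control, and the counted ratio was 5.49 with an exact 95% interval of 2.44 to 14.5. With no filter on low counts edgeR called both genes, at an adjusted p of 2.04e-04 for Wnt7b and 0.00146 for Wnt11, while DESeq2 gave Wnt11 an adjusted p of 0.0164 and Wnt7b none. Both genes were picked for their high counts at 90 min. The ratios, the interval and these p-values come from the same counts, so they are descriptive and give no separate support.

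Wnt11 was the only one of these 2 ligands with a promoter entry. Its second RefSeq window held 1 CRE core. The called genes with an entry, Fzd1, Fzd4, Fzd5, Fzd7, Wnt4, Wnt9a and Wnt9b, held none. Of the other holders of a core, Wnt10b was not called and Sfrp5 was not tested. Any part of the core in the counts was not tested. The first Wnt11 window, on the plus strand at chr7:98834862-98835111 of GRCm38.p6, held 2 CRE cores, marked in capitals and not overlapping.
Wnt11: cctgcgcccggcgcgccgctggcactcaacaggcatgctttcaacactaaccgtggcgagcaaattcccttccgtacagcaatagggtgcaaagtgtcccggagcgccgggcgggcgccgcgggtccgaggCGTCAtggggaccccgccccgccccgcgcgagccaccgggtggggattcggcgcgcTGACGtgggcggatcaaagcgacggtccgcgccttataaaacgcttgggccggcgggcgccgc

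**Figure D2:**
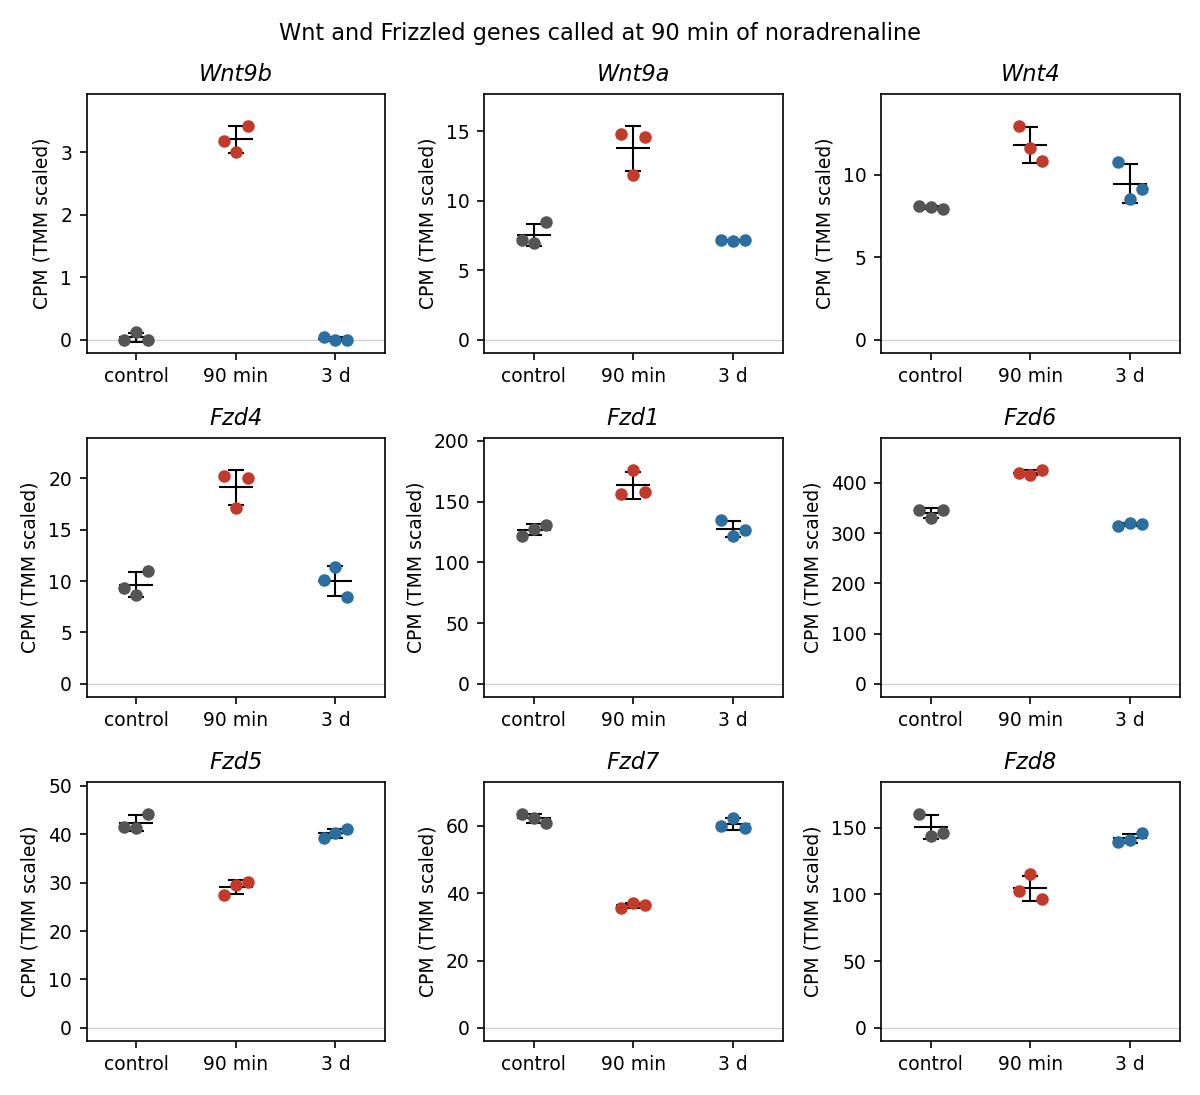
Level in CPM, on a linear axis from 0, in each of the 9 libraries for the 9 Wnt and Frizzled genes called at 90 min, with points for libraries and black bars for the group mean and SD. For Wnt9b the 90 min libraries stand at 3.00 to 3.43 CPM with the other 6 at or below 0.127, and for Fzd7 they stand at 35.7 to 37.2 CPM, below all the others.

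The Frizzleds are the seven-pass membrane receptors for Wnts, and all but Fzd10 were present. Fzd4, Fzd1 and Fzd6 rose at 90 min, and Fzd7, Fzd5 and Fzd8 fell. Within groups of related sequence the genes moved differently: of Fzd1, Fzd2 and Fzd7, 1 rose, 1 was not called and 1 fell, whereas the closely related pair Fzd5 and Fzd8 both fell. Salmon divides reads among similar transcripts, so the split within a group is less certain than its sum. Fzd1, Fzd2 and Fzd7 together summed to 269 to 282 CPM in controls and 269.9 to 297 at 90 min, which overlapped, and Fzd5 and Fzd8 together to 185 to 202 and 127 to 144 CPM, which did not.

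Fzd4 (Entrez 14366), the receptor for norrin and for Wnts in retinal and brain vessels, had the largest increase among the Frizzleds. Its levels were 9.34, 8.61 and 11.0 CPM in controls, 20.2, 17.2 and 20.0 at 90 min, and 10.1, 11.4 and 8.47 at 3 d. The 90 min libraries stood clear of the other 6, which overlapped each other. The mean went from 9.65 ± 1.23 to 19.1 ± 1.71 CPM, a 1.98-fold increase (log2 0.99, SE 0.12, adjusted p = 2.06e-06). Tmem135, whose RefSeq span overlaps Fzd4, was not called (log2 −0.11, adjusted p = 0.348).

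Fzd1 (Entrez 14362) measured 122, 128 and 131 CPM in controls, 157, 176 and 158 at 90 min, and 135, 122 and 127 at 3 d. The 90 min libraries lay above both other groups, and the log2 fold change was 0.37 (SE 0.05, adjusted p = 2.19e-05). Fzd6 (Entrez 14368), a receptor of the planar polarity route known from hair orientation in mice, measured 346, 329 and 346 CPM in controls, 419, 416 and 426 at 90 min, and 315, 319 and 318 at 3 d. The 90 min libraries were the highest and the 3 d libraries the lowest, with no overlap between any groups. Its log2 fold change at 90 min was 0.30 (SE 0.04, adjusted p = 3.25e-06).

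Fzd7 (Entrez 14369), a receptor known from stem cell maintenance, fell most among the 22 genes. Its levels were 63.7, 62.3 and 61.0 CPM in controls, 35.7, 37.2 and 36.6 at 90 min, and 59.9, 62.5 and 59.4 at 3 d. The 3 libraries at 90 min lay close together and below all the others. The mean went from 62.3 ± 1.35 to 36.5 ± 0.751 CPM, 1.71-fold lower (log2 −0.77, SE 0.05, adjusted p = 4.56e-10).

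The windows of Fzd4, on the plus strand at chr7:89404116-89404365 of GRCm38.p6, and of Fzd7, on the plus strand at chr1:59481897-59482146, are shown because these receptors had the largest increase and the largest decrease among the Frizzleds. Capitals mark CCAAT on either strand, present once in the window of Fzd4 and at 2 places in that of Fzd7, so receptors that moved in opposite directions both held it, and neither window held the CRE core.
Fzd4: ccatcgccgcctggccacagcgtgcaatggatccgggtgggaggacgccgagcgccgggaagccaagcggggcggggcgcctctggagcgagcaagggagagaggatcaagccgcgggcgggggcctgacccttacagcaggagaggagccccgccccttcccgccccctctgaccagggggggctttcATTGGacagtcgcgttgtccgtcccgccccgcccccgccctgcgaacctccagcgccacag
Fzd7: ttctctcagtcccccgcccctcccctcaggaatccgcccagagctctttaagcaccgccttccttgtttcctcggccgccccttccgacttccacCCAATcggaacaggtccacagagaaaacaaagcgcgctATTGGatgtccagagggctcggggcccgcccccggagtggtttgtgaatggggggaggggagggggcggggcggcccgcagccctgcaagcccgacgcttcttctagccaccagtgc

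Fzd8 (Entrez 14370) measured 161, 144 and 146 CPM in controls, 103, 115 and 96.5 at 90 min, and 140, 141 and 146 at 3 d. The 90 min libraries lay below all the others, and the log2 fold change was −0.52 (SE 0.06, adjusted p = 1.11e-06). Fzd5 (Entrez 14367) measured 41.5, 41.2 and 44.3 CPM in controls, 27.4, 29.5 and 30.2 at 90 min, and 39.2, 40.3 and 41.0 at 3 d. It too was lowest at 90 min in every library, at −0.54 (SE 0.06, adjusted p = 1.02e-06).

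Fzd2, Fzd3 and Fzd9 were not called. Fzd2 measured 83.4, 85.9 and 90.0 CPM in controls, 78.7, 83.4 and 75.6 at 90 min, and 86.3, 79.5 and 85.3 at 3 d. The highest 90 min library equalled the lowest control to the digits given, and the log2 fold change of −0.12 had an adjusted p of 0.0708, or 0.0308 without the 90 min library of replicate 2. Fzd3, a receptor known from axon guidance, measured 57.6, 54.3 and 52.6 CPM in controls, 55.2, 54.5 and 56.1 at 90 min, and 52.1, 58.0 and 54.1 at 3 d, with all groups overlapping and a log2 fold change of 0.01 (adjusted p = 0.908). Fzd9 was at 7.50 ± 0.233 CPM in controls and 6.52 ± 0.358 at 90 min (log2 −0.20, adjusted p = 0.175).

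**Figure D3:**
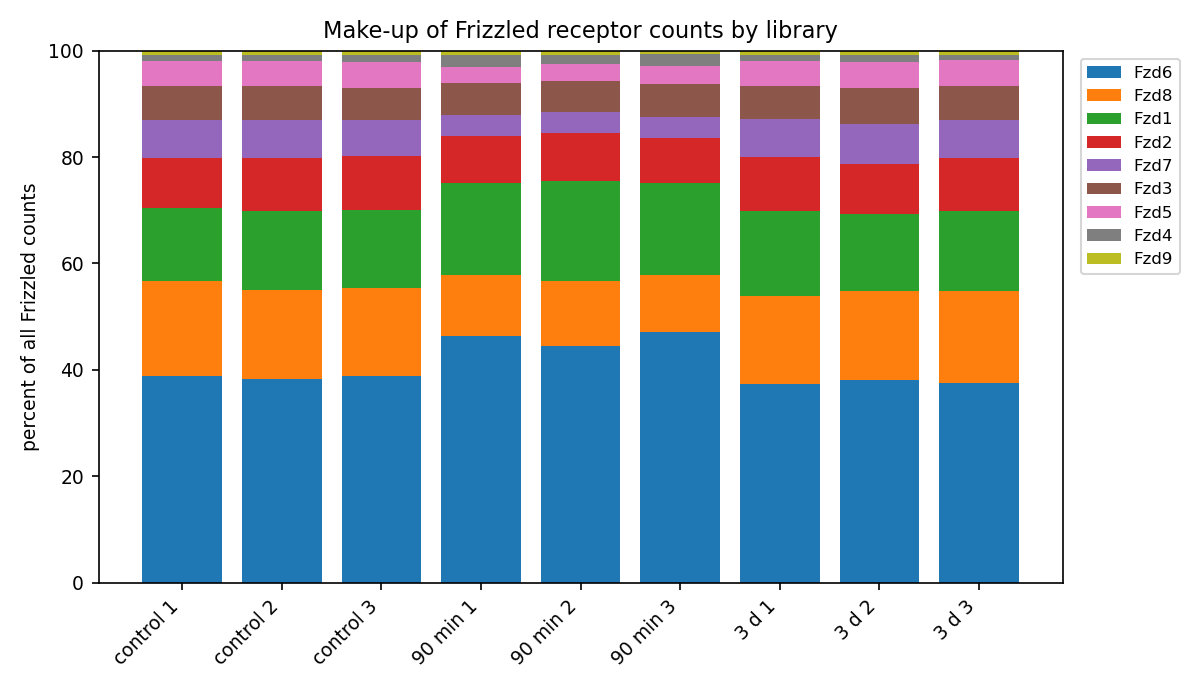
Stacked bars of the share of all Frizzled counts, in percent, that each Frizzled gene supplied in each of the 9 libraries, not corrected for transcript length. Fzd6 takes 38.3 to 38.9% in controls and 44.4 to 47.1% at 90 min, while Fzd8 goes from 16.5 to 18.0% down to 10.7 to 12.3%.

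Both the make-up of the receptor counts and their sum differed between groups. Frizzled levels summed to 861 to 892 CPM in controls, 902 to 936 at 90 min and 840 to 846 at 3 d. These ranges did not overlap between any groups, and the sum was not tested. As a share of Frizzled counts, Fzd6 went from a mean of 38.7% in controls to 46.0% at 90 min and 37.6% at 3 d. Fzd1 went from 14.4 to 17.9 and 15.2%, and Fzd4 from 1.10 to 2.10 and 1.19%. Fzd8 went from 17.1 to 11.5 and 16.9%, Fzd7 from 7.08 to 3.99 and 7.19%, and Fzd5 from 4.81 to 3.18 and 4.77%. These 6 receptors are those called at 90 min in the same libraries, so their shares are no separate evidence, and shares of one total are tied to each other.

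None of the tested Sfrp and Dkk antagonists was called at 90 min. Sfrp1 measured 701, 683 and 731 CPM in controls, 684, 721 and 674 at 90 min, and 765, 783 and 723 at 3 d. Control and 90 min libraries overlapped, and the log2 fold change of −0.02 (SE 0.04) was not called (adjusted p = 0.712). Sfrp4 was at 4.52 ± 0.775 CPM in controls and 5.48 ± 0.269 at 90 min (log2 0.28, adjusted p = 0.188), and Dkk3, a family member that does not bind Lrp6 as Dkk1 does, at 2.77 ± 0.134 and 2.93 ± 0.359 CPM (log2 0.08, adjusted p = 0.775).

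At 3 d against control, 0 of the 22 genes were called by edgeR, against a background of 0.115% of all tested genes (0.0382% higher and 0.0764% lower), and DESeq2 also called 0 of the 22. At an unadjusted edgeR p below 0.05 there were 3 of the 22, against 1221 of all 13090 tested genes. They were Fzd6 (log2 −0.10, adjusted p = 0.391), Sfrp1 (0.10, adjusted p = 0.465) and Wnt4 (0.24, adjusted p = 0.528). Fzd6 lay below and Wnt4 above every control in all 3 libraries at 3 d, while Sfrp1 overlapped the controls. Fzd9, at 6.68 ± 0.178 CPM (log2 −0.17, adjusted p = 0.680), and Fzd5, at 40.2 ± 0.914 CPM (log2 −0.07, adjusted p = 0.750), also lay below every control. How many of all tested genes lay outside the controls in this way was not counted. A p that misses the threshold does not show that levels were back to those of the controls.

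Between 90 min and 3 d, 11 of the 22 genes were called, 5 higher and 6 lower at 3 d, against a background of 39% of all tested genes, with 18.7% called higher and 20.4% lower. This comparison shares its 90 min libraries with the first, so opposite signs in the pair are not independent. Wnt9b, which passed the filter through those libraries alone, is among the 11 and gives no separate support to that count. Fzd7 was higher at 3 d than at 90 min by a log2 fold change of 0.73 (adjusted p = 9.53e-10), Fzd5 by 0.47 and Fzd8 by 0.44. Fzd4 fell by 0.94 on the log2 scale, Fzd6 by 0.41 and Fzd1 by 0.36, and among ligands Wnt9a fell by 0.94 and Wnt9b by 7.00. The other 3 calls were small and were lost when single libraries were left out. For Wnt4 (−0.32, adjusted p = 0.0259) the adjusted p was 0.126 without the 90 min replicate 1, 0.112 without the 3 d replicate 2, 0.0735 without the 3 d replicate 3, and 0.0754 by DESeq2. For Wnt5a (0.16, adjusted p = 0.0175) it was 0.119 without the 90 min replicate 1, 0.0956 without the 3 d replicate 1 and 0.0635 without the 3 d replicate 2. For Sfrp1 (0.13, adjusted p = 0.0251) it was 0.0503 without the control replicate 1, 0.0853 and 0.0570 without the 90 min replicates 1 and 3, and 0.0995 and 0.144 without the 3 d replicates 1 and 2.

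Around these genes, 71 other genes of the Wnt pathway were listed and 61 were tested. At 90 min 11 rose and 17 fell, 45.9% of those tested, against 33% of all tested genes (17.5% higher and 15.5% lower), with a median log2 fold change of −0.05. At 3 d against control 0 were called by edgeR. At an unadjusted edgeR p below 0.05 there were 7 of the 61, against 1221 of all 13090 tested genes. Among 12 tested nuclear factors, 1 rose and 6 fell. Tle3, a co-repressor of TCF factors, went from 248 ± 10.2 to 85.9 ± 8.69 CPM (log2 −1.53, SE 0.06, adjusted p = 1.32e-12), and Bcl9l, which links beta-catenin to its coactivators, from 186 ± 5.52 to 89.7 ± 7.13 CPM (−1.05, SE 0.06, adjusted p = 3.67e-11). Tle1, another co-repressor, rose by 0.79 on the log2 scale (adjusted p = 8.93e-07).

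Of 10 tested antagonists outside the Sfrp and Dkk families, 4 rose and 1 fell. For these and the co-receptors below, the share of all tested genes called was 33% (17.5% higher and 15.5% lower). Igfbp4, a binding protein of insulin-like growth factors that also antagonises Wnt, went from 87.9 ± 1.68 to 148 ± 8.15 CPM (log2 0.76, adjusted p = 2.34e-10). Among 6 tested co-receptors 2 rose and 2 fell. Ptk7, a co-receptor of the polarity route, fell by 0.51 on the log2 scale (adjusted p = 2.65e-08). Among those named after their values were seen, Ror2 rose by 0.80 (adjusted p = 2.87e-06), Lrp6 rose by 0.20 (adjusted p = 0.00179), and Lrp5 fell by 0.22 (adjusted p = 8.62e-04).

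In the polarity and calcium branch 2 of 12 tested genes rose and 3 fell, with Prickle2 rising by 0.74 (adjusted p = 3.63e-08). For this branch and the groups that follow, the share of all tested genes called was 33% (17.5% higher and 15.5% lower). None of the 4 tested genes of ligand processing and secretion was called, among them the Wnt carrier Wls (log2 −0.02, adjusted p = 0.768). In the beta-catenin relay 2 of 13 rose and 4 fell, and Ctnnb1, which encodes beta-catenin, was not called (−0.02, adjusted p = 0.729). The R-spondin axis, which controls how long Frizzleds stay at the surface, had 1 of 4 lower. At 3 d against control the smallest p-values of the list were those of Tle2 (0.38, adjusted p = 0.128), Cthrc1 (−0.15, adjusted p = 0.346) and Prickle1 (−0.91, adjusted p = 0.391), none of them called.

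Of 18 listed genes known as beta-catenin targets, of which 7 were also on the pathway list, 13 were tested. At 90 min 6 rose and 1 fell, 53.8% of those tested against 33% of all tested genes (17.5% higher and 15.5% lower), with a median log2 fold change of 0.26. At 3 d against control 0 were called by edgeR. At an unadjusted edgeR p below 0.05 there were 0 of the 13, against 1221 of all 13090 tested genes. Axin2, the target most used as a readout of beta-catenin signalling, measured 11.0, 11.7 and 9.34 CPM in controls, 8.56, 11.2 and 9.80 at 90 min, and 12.4, 12.1 and 11.3 at 3 d. Its control and 90 min libraries overlapped, and the log2 fold change of −0.11 (SE 0.11) was not called (adjusted p = 0.497). Ccn4, a matricellular protein also named Wisp1, had the smallest p, at 97.0 ± 6.33 CPM in controls and 283 ± 8.56 at 90 min (log2 1.55, adjusted p = 1.45e-14).

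Myc (0.76), the antagonist Apcdd1 (0.88), the cyclin Ccnd1 (0.28), the receptor Tnfrsf19 (0.83) and the Dishevelled antagonist Nkd2 (0.87) also rose, with adjusted p from 1.08e-07 to 9.79e-05. Tcf7, a TCF factor, fell by 0.56 on the log2 scale (adjusted p = 1.34e-04). At 3 d the smallest p-values belonged to Myc (log2 −0.12, adjusted p = 0.680), Axin2 (0.16, adjusted p = 0.711) and Apcdd1 (0.12, adjusted p = 0.784).

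**Figure D4:**
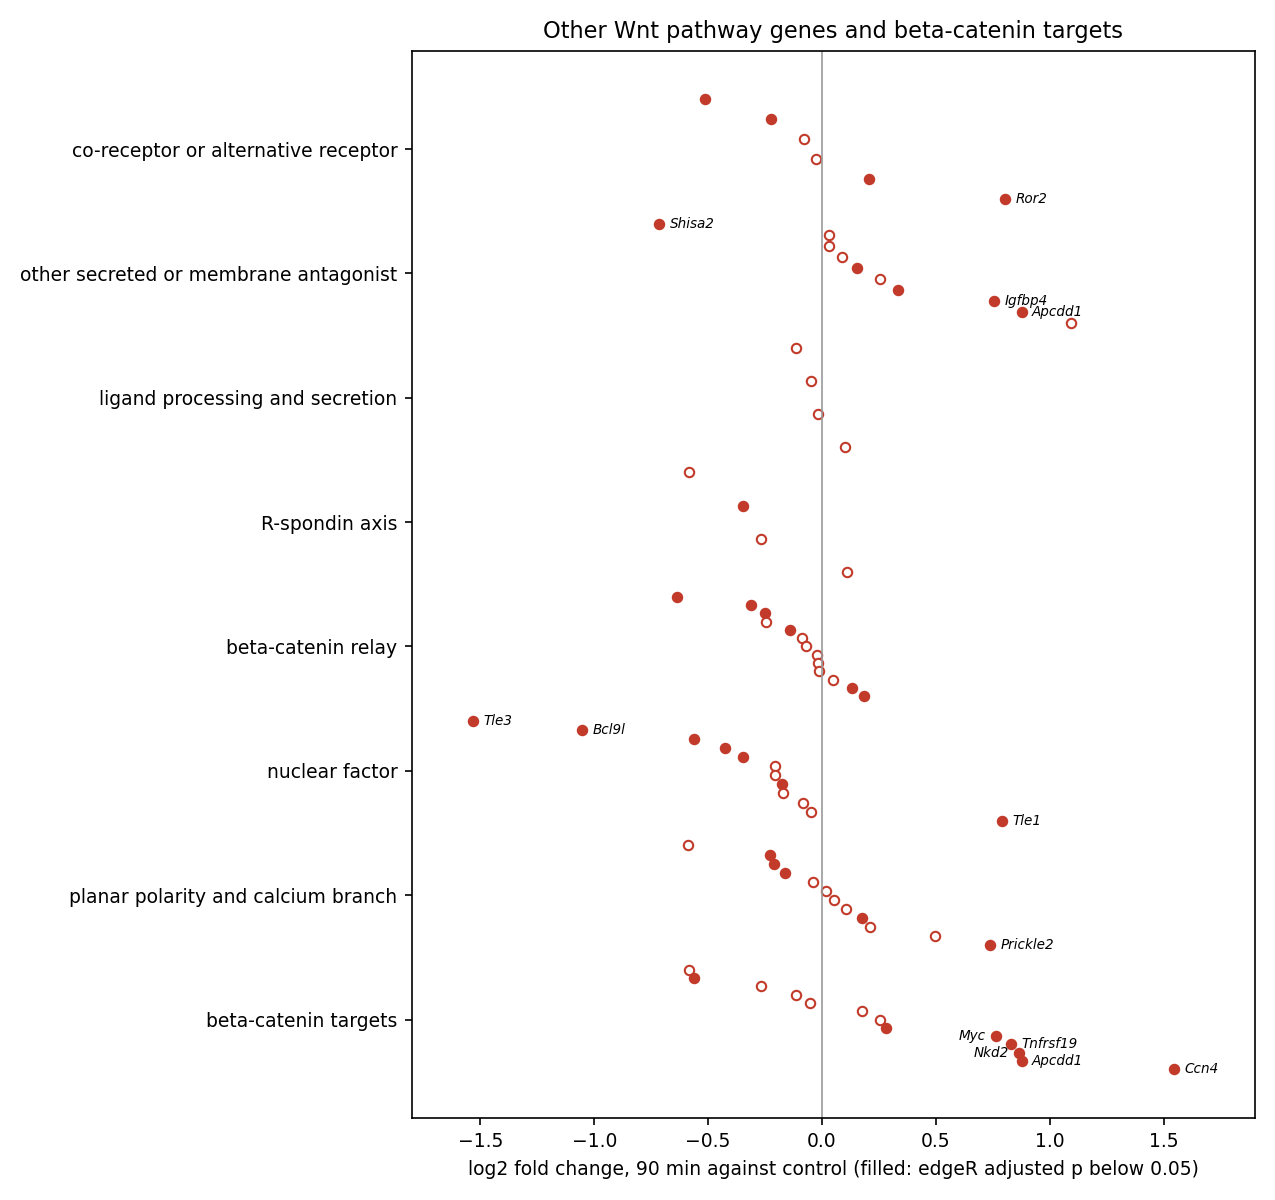
Log2 fold change at 90 min against control for each tested gene of the pathway list, by role, and for the tested beta-catenin targets, with filled points for edgeR adjusted p below 0.05 and labels for the larger changes. Nuclear factors lie mostly to the left, with Tle3 at −1.53 and Bcl9l at −1.05, and Ccn4 lies farthest right at 1.55.

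Some markers of other cell types were called at 90 min, where 33% of all tested genes were called (17.5% higher and 15.5% lower). Pericyte and smooth muscle markers summed to 736 to 744 CPM in controls, 502 to 568 at 90 min and 667 to 685 at 3 d, and 2 of 4 tested, from 7 listed, were called lower. Oligodendrocyte markers summed to 17.7 to 19.5, 30.5 to 30.9 and 18.3 to 19.7 CPM, with 1 of 2 tested called higher and the defining genes Olig1 and Olig2 at 0 in every library. Endothelial markers, given because Fzd4 and Wnt7b are known from vessels, summed to 49.5 to 54.9, 43.8 to 45.9 and 51.0 to 58.4 CPM, with 1 of 2 tested called higher and 1 lower, Cldn5 at 0 in every library and Cdh5 at 0 in controls and at 90 min. Microglia markers summed to at most 10.1 CPM in any library. Neuron markers summed to 137 to 139, 139 to 157 and 130 to 145 CPM, mostly from Map2. Of 4 tested, 1 was called higher, namely Nefl, with 0 counts over the controls, 61 at 90 min and 1 at 3 d. Nefl passed the filter through the 90 min libraries alone. Progenitor markers summed to 4419 to 4667, 4402 to 4716 and 4255 to 4467 CPM, mostly from Vim, with 1 of 5 tested called lower. At 3 d against control, 1 of 4 tested pericyte and smooth muscle markers was called lower. So was 1 of 10 tested fibroblast and meningeal markers, and the other marker lists held no call. Over all tested genes 0.115% were called there (0.0382% higher and 0.0764% lower). The part of these markers in the changes of Wnt and Frizzled genes was not tested.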

How the data were processed

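The authors deposited estimated counts per gene for 9 poly(A)-selected RNA-seq libraries, as whole numbers, so rounding before the tests changed none. The mm39 build, Salmon 1.8.0 and fastp 0.23.4 are named in the submitters' processing notes. The sources used here do not give the annotation, the use of strand, or how transcripts were summed to genes. Groups came from the sample titles.

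Analysis was done with edgeR 4.0.16 under R 4.3.3, where filterByExpr (minimum count 10, minimum total 15) kept 13090 genes. Library sizes were scaled by TMM, and 1 fit over the 9 libraries with a coefficient per group gave two-sided quasi-likelihood tests. Benjamini-Hochberg adjustment ran over all tested genes of a comparison, with calls at an adjusted p below 0.05. The fit was tested on simulated data. The SE was the log2 fold change divided by the square root of F. Counted ratios carry exact 95% intervals, and these and the limits at 0 cover counting error only. Replicates never matched within sampling noise, with a chi-square of 2.37 to 7.03 per degree of freedom.

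Per-library values are given for genes called in any comparison and for others at 10 CPM or more in controls. From each of the pathway and target lists, the 6 smallest p-values at 90 min, the 3 smallest at 3 d and Axin2 are named. Tcf7, Wls, Ctnnb1, Ror2, Lrp5 and Lrp6 are named outside that rule. The genes and lists were chosen with earlier results of these data known. Promoter windows come from RefSeq GRCm38.p6, an older build than the files', and Dkk3, Dkk4, Fzd2, Fzd3, Fzd6, Fzd8, Sfrp1, Sfrp4, Wnt10a, Wnt5a, Wnt7b and Wnt8a had no entry. Alternatives were RLE size factors, no or a stricter filter (minimum count 50), DESeq2 1.42.0, a fit of only the pair of groups at issue, a block by replicate number, and leaving out each library.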

Additional observations from a re-analysis of the deposited data

Results flagged for a closer look

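The change from 90 min to 3 d was tested directly, and 11 of the 22 tested genes, against 39% of all tested genes, differed between the times (edgeR adjusted p below 0.05, log2 fold change of 3 d against 90 min). The ligands were lower at 3 d for Wnt9b (−7.00), Wnt9a (−0.94) and Wnt4 (−0.32) and higher for Wnt5a (0.16). The receptors were lower for Fzd4 (−0.94), Fzd6 (−0.41) and Fzd1 (−0.36) and higher for Fzd7 (0.73), Fzd5 (0.47) and Fzd8 (0.44). The antagonist Sfrp1 was higher (0.13). The calls of Wnt4, Wnt5a and Sfrp1 were lost when some single libraries were left out. Wnt9b passed the filter through its 90 min libraries alone. Those libraries also enter the comparison of 90 min with control, so the comparisons are not independent.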

How the results depend on the processing

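The same 9 genes were called at 90 min under every alternative run, and 9 to 12 genes were called in all. No filter added Wnt7b, Wnt11 and Wnt5a, DESeq2 added Wnt11, and so did leaving out any library except the 90 min replicates 1 and 2. Leaving out single libraries gave 3 to 5 genes lower at 90 min, the highest without the 90 min library of replicate 2, which added Fzd2 and Wnt5a. From 90 min to 3 d, leaving out single libraries gave 3 to 5 genes higher, the lowest without the 90 min replicate 1 or the 3 d replicate 1 or 2, and all alternatives together gave 8 to 13 called. At 3 d against control, 15 of all tested genes were called, 205 with no filter, 76 with DESeq2, 76 in the fit of 2 groups, 3 with the replicate block, and 0 (without the control replicate 2) to 83 (without the 90 min replicate 3) with single libraries left out. Same-numbered libraries did not deviate together (r −0.148 to 0.0491), so the numbers were not taken as pairs; the replicate block left 9 genes called at 90 min and 10 between the times, without Sfrp1.

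Signs turned only for uncalled values, when single libraries were left out. At 90 min the log2 ranges were −0.015 to 0.16 for Dkk3, −0.019 to 0.0498 for Fzd3, −0.054 to 0.0026 for Sfrp1, −0.55 to 0.021 for Wnt16, −0.14 to 0.02 for Wnt5b and −0.10 to 0.32 for Wnt6. At 3 d against control they were −0.031 to 0.042 for Fzd1, −0.049 to 0.032 for Fzd3, −0.057 to 0.15 for Fzd4, −0.41 to 0.11 for Wnt10b, −0.33 to 0.25 for Wnt2b, −0.054 to 0.0298 for Wnt5b, −0.13 to 0.014 for Wnt9a and −2.71 to 1.84 for Wnt9b. Between the times they were −0.061 to 0.017 for Fzd3, −0.0084 to 0.068 for Fzd9, −0.32 to 0.16 for Wnt10a, −0.22 to 0.36 for Wnt2b and −0.045 to 0.11 for Wnt5b. The cause was not tested. Depth limits the ligands near 0, where 3 counts are 0.158 to 0.190 CPM.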
